A study of Mus musculus with 14 samples.

Results

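Mouse embryonic fibroblasts were cultured through a chemical protocol meant to turn them into retinal pigment epithelium, and the cells of day 32 (D32) were set against the fibroblasts they started from (MEF). The 2 groups hold 6 of the 14 mouse libraries of the study, 3 in each, and every gene with enough counts was tested anew from the deposited counts. D32 cells were C57BL/6J fibroblast-derived cells kept at the end in a differentiation and maturation medium with serum replacement, Y27632, nicotinamide, retinoic acid and activin A. Before that they passed through a reprogramming medium with bFGF, CHIR-99021, LDN193189, A 83-01, Hh-Ag1.5, RG108, BMS-345541 and CKI-7. MEF were fibroblasts from C57BL/6J embryos at E13.5, and the labels enter the reprogramming medium as their treatment too. The other libraries, used here only as levels beside these, were 3 of day 7 (D7) and 3 of day 18 (D18), both from cells in the reprogramming medium, and 2 of primary retinal pigment epithelium with no treatment (P-RPE). The labels give the same embryonic source for all of them, P-RPE included. At each time point, cells that looked well induced were scraped for RNA, so D32 describes selected cells. No source used here says whether the replicates were separate cultures or animals, so the spread behind each p may not be that between independent cultures. Each p rests on the spread within groups over all 14 libraries, so that of D7, D18 and P-RPE enters too.

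The retinal pigment epithelium is the pigmented cell layer behind the photoreceptors. Its visual cycle turns all-trans retinol back into the 11-cis form that photoreceptors use: LRAT esterifies retinol, RPE65 isomerises the ester, RDH5 oxidises the product, and RLBP1 and RGR bind its retinoids. It also makes melanin, moves ions and lactate between retina and blood, and takes up shed outer segments through the receptor MERTK. MITF and OTX2 are transcription factors that switch on its pigment genes. Fibroblasts, in contrast, make fibrillar collagen and fibronectin, hold contractile actin fibres, and keep a record of their place in the trunk or limb in the Hox genes they express.

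MITF binds E-box letters, among them CATGTG, the core of the M-box known from pigment gene promoters, and OTX factors bind GGATTA. The windows from 250 bases before to 50 after the RefSeq start of 5 genes are given here. These 5 had 0 or 2 counts in the MEF libraries together, but they are a choice and not all such genes. Each of the 5 windows holds CATGTG or its complement, so they do not show how common the letters are. Lrat, also with 0 counts in MEF, held neither CATGTG nor GGATTA in its window and is not shown. The 5 windows were taken from RefSeq on GRCm38.p6 and are written 5′ to 3′ on the strand of the gene. Capitals mark CATGTG or its complement CACATG, and GGATTA or its complement TAATCC.
Rpe65, chr3:159598931-159599230, plus strand: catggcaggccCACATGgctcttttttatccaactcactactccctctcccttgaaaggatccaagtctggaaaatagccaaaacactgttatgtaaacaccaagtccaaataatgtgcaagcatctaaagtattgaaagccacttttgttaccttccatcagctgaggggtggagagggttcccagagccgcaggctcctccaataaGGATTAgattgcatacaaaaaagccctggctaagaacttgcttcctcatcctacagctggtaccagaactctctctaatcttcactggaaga
Rgr, chr14:37048965-37049264, minus strand: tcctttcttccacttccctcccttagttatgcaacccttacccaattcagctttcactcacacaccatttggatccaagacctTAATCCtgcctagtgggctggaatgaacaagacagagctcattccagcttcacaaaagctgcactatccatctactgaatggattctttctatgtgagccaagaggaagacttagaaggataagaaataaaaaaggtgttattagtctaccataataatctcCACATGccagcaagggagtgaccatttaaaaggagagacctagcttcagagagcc
Tyr, chr7:87493463-87493762, minus strand: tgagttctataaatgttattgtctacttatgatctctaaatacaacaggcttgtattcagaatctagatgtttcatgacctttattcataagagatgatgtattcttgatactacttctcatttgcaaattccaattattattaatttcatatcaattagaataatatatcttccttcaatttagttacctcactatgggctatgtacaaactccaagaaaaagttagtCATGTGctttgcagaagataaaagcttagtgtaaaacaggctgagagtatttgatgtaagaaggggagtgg
Tyrp1, chr4:80833963-80834262, plus strand: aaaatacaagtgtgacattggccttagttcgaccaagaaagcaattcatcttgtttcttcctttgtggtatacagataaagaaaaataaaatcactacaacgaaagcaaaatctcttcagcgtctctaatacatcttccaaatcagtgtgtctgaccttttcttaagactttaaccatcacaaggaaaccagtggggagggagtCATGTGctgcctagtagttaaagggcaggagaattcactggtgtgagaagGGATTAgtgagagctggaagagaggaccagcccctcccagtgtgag
Dct, chr14:118052197-118052496, minus strand: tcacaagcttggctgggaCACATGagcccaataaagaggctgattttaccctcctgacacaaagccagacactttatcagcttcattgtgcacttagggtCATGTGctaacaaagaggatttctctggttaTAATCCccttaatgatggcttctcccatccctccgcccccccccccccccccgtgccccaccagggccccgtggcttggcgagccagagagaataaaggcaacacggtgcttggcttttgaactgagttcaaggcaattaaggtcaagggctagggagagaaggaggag

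Both letter sets were searched on both strands. CATGTG stood in the window of 7 of the 9 melanin genes that the table covers (Dct, Myo7a, Oca2, Slc24a5, Trpm1, Tyr and Tyrp1) and of 3 of the 9 visual cycle genes (Rgr, Rlbp1 and Rpe65). GGATTA stood in 3 and 2 of them. By windows, since a gene can have several, 66.7% of the 12 windows of melanin genes held CATGTG, against 9.62% of 17656 windows of all genes tested and 14.2% of all 32851 windows in the table. GGATTA was held by 25% of the melanin windows and 6.09% of the windows of all genes tested. CATGTG did not go with 1 direction of change: it stood in 10.0% of windows of genes called higher in D32 and 8.31% of those called lower, but at 4-fold or more in 11.3% of windows of higher genes and 13.7% of those of lower genes. The Hox list, most of which fell, held it in 20.8% of 24 windows, the visual cycle list in 18.8% of 16, and the contractile list in 0 of 11. A match describes letters, not a site.

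Total counts ran from 35263042 to 38151106 in the D32 libraries and from 35507532 to 40156109 in the MEF libraries, and 25298, 24482 and 25166 genes had a count in D32, against 22110, 22442 and 22414 in MEF. One count was worth 0.0250 to 0.0305 CPM in these 6 libraries, and all levels are given in CPM, counts relative to a TMM-adjusted library size, a unit that does not correct for gene length. The D32 libraries differed more among themselves than the MEF libraries: the common biological coefficient of variation, the relative spread beyond counting, was 0.214 in D32 and 0.0426 in MEF. Replicate 2 of D32 stood apart from the other two. Its Y-linked genes were low, with Ddx3y at 65.6, 8.34 and 55.4 CPM in the D32 libraries, against 23.9, 21.6 and 22.8 CPM in MEF, its Xist was high (171, 346 and 139.9 CPM in D32, against 209, 201 and 209.6 CPM in MEF), and its mitochondrially encoded genes held 1.45% of counts, the lowest of the 3. Replicate 1 had the highest level of 10 of the 12 visual cycle genes and 12 of the 14 melanin genes, and replicate 3 that of 11 of the 12 rod genes. Over all 20562 genes tested, replicate 1 was the highest in 7411, replicate 2 in 7801 and replicate 3 in 5350. No pair of libraries was identical.

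Of 20562 genes tested, 7325 were higher in D32 than in MEF (35.6%) and 5051 were lower (24.6%) by edgeR's quasi-likelihood test at a Benjamini-Hochberg adjusted p under 0.05, so that 60.2% were called in all. These shares over all genes are the background for every list count of D32 against MEF below. At 2-fold or more, 5346 were higher and 2141 lower, and at 8-fold or more 2430 and 295. The median log2 change over all genes was 0.26, and scaling by library totals alone put it at 0.46, which turned the split into 8661 higher and 3869 lower. Changes under about that size are therefore relative to the scaling. Without replicate 2 of D32, 7164 genes were higher and 5139 lower. Genes called higher held 35.1% ± 0.958 of counts in D32 and 12.2% ± 0.0166 in MEF, and genes called lower held 36.5% ± 1.09 in D32 and 62.3% ± 0.0403 in MEF (SD, n = 3 each). The 5193 genes with 0 counts in all MEF libraries and any count in D32, whether tested or not, held 0.732% ± 0.209 of D32 counts.

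**Figure D1:**
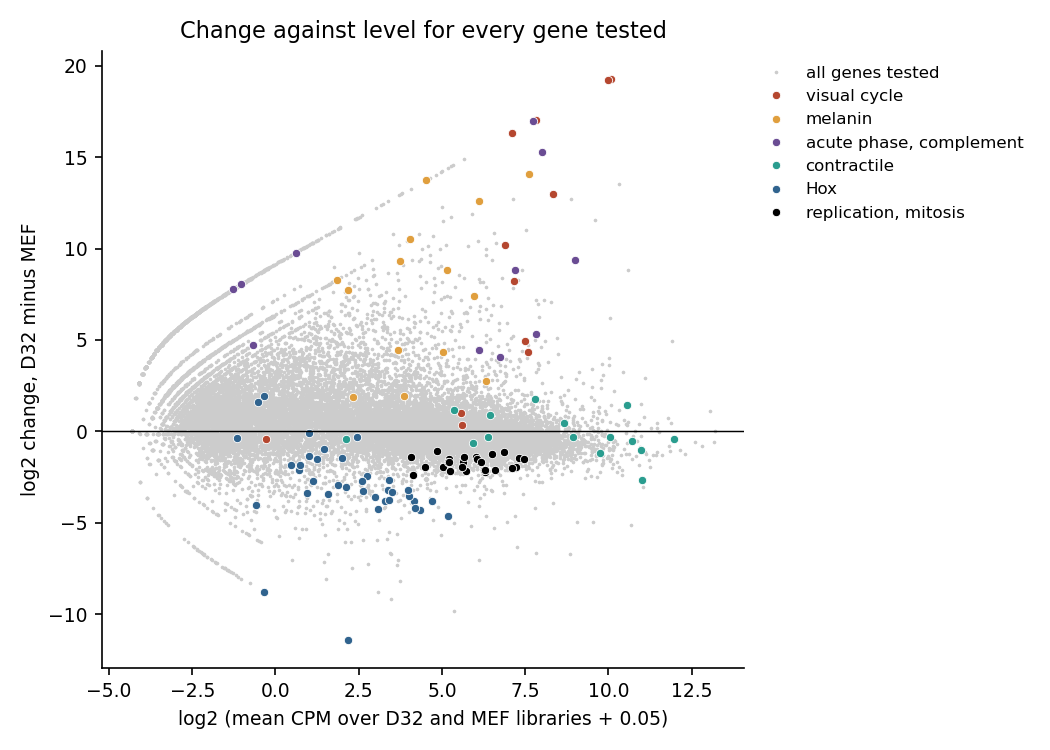
Log2 change of D32 minus MEF against the log2 mean CPM of the 6 libraries plus 0.05, for all 20562 genes tested (grey) and the members of 6 gene lists (colours). The 14 melanin genes and 10 of the 12 visual cycle genes were higher, all 27 replication and mitosis genes lie below 0, and contractile genes lie on both sides of 0. The curved rows of grey points are genes with 0 or few counts in a group.

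Most visual cycle and retinol handling genes rose in D32. Of 12 listed genes, all tested, 10 were higher, 0 were lower and 2 did not pass, and their median log2 change was 9.21, against 0.26 over all genes. Rgr had 3021, 2019 and 1383 CPM in the D32 libraries and 0 counts in MEF, at least 74837-fold higher against a floor of 3 counts over the MEF group. Rpe65, the isomerase, had 718, 317 and 329 CPM in D32 and 0 counts in MEF, at least 15950.2-fold higher. Lrat had 436, 179.9 and 217 CPM in D32 and likewise 0 counts in MEF, at least 9741-fold higher. The edgeR adjusted p was 2.75e-09 for Rgr, 3.62e-08 for Rpe65 and 2.43e-07 for Lrat, and in each the first D32 library was the highest. Ttr, which encodes the retinol and thyroxine carrier transthyretin, had 2622, 2075 and 1429 CPM in D32 and 0 counts in MEF. Rlbp1, which encodes a retinaldehyde-binding protein, stood at 872, 617 and 433 CPM in D32, against 0.122, 0 and 0.113 CPM in MEF, a log2 change of 12.96 (SE 0.43). Stra6, the cell-surface receptor for the retinol carrier, had 299, 254 and 157 CPM in D32 and 0.213, 0.111 and 0.284 CPM in MEF, with a log2 change of 10.17 (SE 0.51).

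Further members had measurable levels in MEF. Rdh10, a retinol dehydrogenase, had 537, 292 and 273 CPM in D32, against 16.3, 20 and 18.9 CPM in MEF (log2 change 4.32, SE 0.24, edgeR adjusted p = 2.75e-09). Rdh5 stood at 363, 311 and 189 CPM in D32 and 0.975, 1.08 and 0.794 CPM in MEF, although 25.6% of its exon bases overlap Bloc1s1. The D32 and MEF libraries did not overlap for either gene. Dhrs3, which reduces retinaldehyde, had 69.7, 63.6 and 55.9 CPM in D32 and 27.7, 36.7 and 31.4 CPM in MEF, a log2 change of 0.98 (SE 0.13). Rdh11 and Rbp4 did not pass, with 95% intervals of the log2 change of -0.01 to 0.65 and -1.17 to 0.32.

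Melanin genes rose as a whole list. All 14 members were higher in D32, with a median log2 change of 8.01. Tyr, the tyrosinase that starts melanin synthesis, had 62.9, 30.6 and 44.3 CPM in D32 and 0 counts in MEF, at least 1606-fold higher. Dct, which converts dopachrome, had 505, 259.7 and 419.5 CPM in D32, or 46090 counts over the group, against 2 in the MEF group, a ratio of 20680.4 (counting interval 5725 to 170770.0). Tyrp1, a further melanosome enzyme, had 184, 102 and 133 CPM in D32 and 2 counts over MEF as well, a ratio of 7314 (counting interval 2024 to 60401). These counting intervals cover counting error only, at 95%. Replicate 2 of D32 was the lowest of the 3 for Tyr, Dct and Tyrp1, and all 3 lay far above MEF. The edgeR adjusted p was 1.15e-06 for Tyr, 3.09e-10 for Dct and 2.28e-10 for Tyrp1. Pmel, which forms the fibrils that melanin settles on, had 146, 117 and 109 CPM in D32 and 1.04, 0.664 and 0.482 CPM in MEF (log2 change 7.42, SE 0.32). Mlana, a melanosome membrane protein, had 29.4, 22.8 and 27.8 CPM in D32 and 0.0609, 0 and 0.0567 CPM in MEF. Rab38, a small GTPase of melanosome transport, showed the least change of the list, with 8.91, 5.59 and 9.14 CPM in D32 and 2.5, 2.16 and 1.7 CPM in MEF (log2 change 1.89, SE 0.27).

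**Figure D2:**
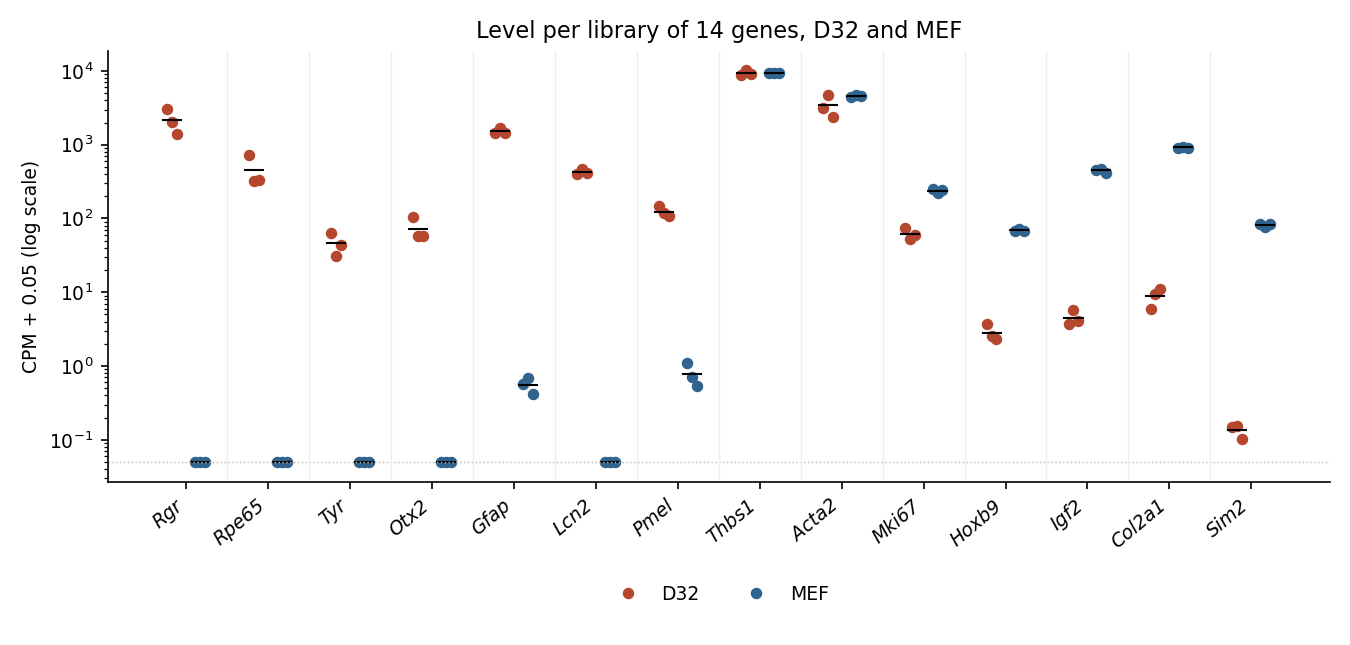
CPM plus 0.05 on a log scale in each D32 library (red, left) and MEF library (blue, right) for 14 genes, with a black line at each group's mean and a dotted line at 0 CPM. Rgr, Rpe65, Tyr, Otx2 and Lcn2 lie on the dotted line in all 3 MEF libraries, Thbs1 stands at 8866 to 10207 CPM in D32 and 9280 to 9499 CPM in MEF, and Sim2 lies at 0.0522 to 0.106 CPM in D32.

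Most transcription factors of the retinal pigment epithelium and the early eye field rose. Of 16 listed, 11 were higher, 1 was lower and 4 did not pass, with a median log2 change of 4.33. Otx2 had 104, 57.2 and 58.2 CPM in D32 and 0 counts in MEF, at least 2554-fold higher (edgeR adjusted p = 5.74e-08). Mitf had 28, 15.2 and 20.6 CPM in D32, against 3.81, 3.62 and 3.66 CPM in MEF, a log2 change of 2.52 (SE 0.22). Mitf was thus already present in MEF, and Otx2 was not detected there. Pax6, a master factor of eye development, had 40.1, 21.4 and 45.3 CPM in D32 and 0.7, 0.608 and 0.454 CPM in MEF (log2 change 5.92, SE 0.77), and its D18 libraries averaged 41.8 CPM. Six3, a factor of the early forebrain and eye, had 23.5, 16 and 13.7 CPM in D32 and 0.122, 0.0553 and 0.113 CPM in MEF. Lhx2, which patterns the optic vesicle, had 24.7, 16.6 and 15.4 CPM in D32 and 1.83, 2.54 and 2.55 CPM in MEF. Tbx5, of the dorsal eye and the forelimb, was the member that fell, to 1.73, 1.53 and 1.98 CPM in D32, against 6.52, 7.22 and 7.01 CPM in MEF.

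Transport and phagocytosis genes moved in both directions, more of them up. Of 20 listed, 13 were higher, 3 were lower and 4 did not pass, and the median log2 change was 1.45. Slc16a8, the lactate transporter of the basal membrane, had 262, 263 and 141 CPM in D32 and 0.731, 0.581 and 0.652 CPM in MEF (log2 change 8.40, SE 0.33, edgeR adjusted p = 1.18e-10). Kcnj13, an inwardly rectifying potassium channel, had 28.2, 18.6 and 15.9 CPM in D32 and 0 counts in MEF, although 49.1% of its exon bases overlap Gigyf2. Slc12a2, a chloride importer, had 351, 310.4 and 561 CPM in D32 and 46.8, 43.5 and 40.6 CPM in MEF. Of the receptors for outer segments, Mertk rose and Axl fell. Mertk had 80.1, 58.9 and 46.5 CPM in D32 and 24.4, 22.8 and 24.2 CPM in MEF (log2 change 1.38, SE 0.19). Axl had 515, 600.2 and 462 CPM in D32 and 1414, 1487 and 1469 CPM in MEF (log2 change -1.47, SE 0.12). Gas6, a ligand of both, had 897, 1144 and 1072 CPM in D32 and 164, 170.4 and 170.2 CPM in MEF (log2 change 2.62, SE 0.20). Itgav, an integrin chain that binds outer segments, fell to 323, 189 and 219.6 CPM in D32, against 450.0, 422 and 457 CPM in MEF.

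Secreted factors of the epithelium also rose, in 9 of 10 listed genes, and 1 fell. Enpp2, a lysophospholipase that makes lysophosphatidic acid, had 633, 346 and 386 CPM in D32 and 3.05, 3.93 and 2.27 CPM in MEF (edgeR adjusted p = 1.44e-09). Cst3, a protease inhibitor, had 1699, 1887 and 1285 CPM in D32 and 185, 193 and 189.7 CPM in MEF. Serpinf1, which encodes the anti-angiogenic factor PEDF, rose too, with 246, 339 and 325 CPM in D32 and 128, 125 and 137 CPM in MEF (log2 change 1.22, SE 0.33, edgeR adjusted p = 0.00614). Timp3, an inhibitor of matrix proteases, had 1856, 1624 and 1205 CPM in D32 and 593, 595 and 564 CPM in MEF. Htra1, a serine protease, was the member that fell, to 42.4, 60.9 and 63 CPM in D32, against 161, 169.8 and 164 CPM in MEF.

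The rise from MEF did not bring visual cycle and melanin genes to the level of P-RPE. In D32 against P-RPE, 27.1% of all genes were higher and 26.8% lower by the same test, 53.9% in all, while all 12 visual cycle and all 14 melanin genes were lower in D32. Scaling by library totals alone turned the split over all genes from 5564 higher and 5516 lower into 6979 and 4260. Rpe65 averaged 455 ± 228 CPM in D32 (SD, n = 3), and its P-RPE libraries had 4564 and 3231 CPM, a log2 difference of -3.10 (SE 0.40, edgeR adjusted p = 6.11e-05). Tyr averaged 45.9 ± 16.2 CPM in D32, and its P-RPE libraries had 305 and 263 CPM, a log2 difference of -2.63 (SE 0.27). As a description only, percentages of the P-RPE level were taken for 213 genes with at least 10 CPM in P-RPE and under 1 CPM in MEF, D7 and D18. These genes were chosen by a high level in P-RPE, which is also the divisor, so the percentages place genes beside each other and do not bear on whether D32 reached P-RPE. Their mean level in D32 was 12.4% of that in P-RPE at the median, with quartiles of 9.32% and 16.6%. The 4 visual cycle genes among them lay between 9.05% and 11.7%, the 7 melanin genes between 9.31% and 21.8%, and the 6 eye transcription factors between 2.99% and 88.7%.

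**Figure D3:**
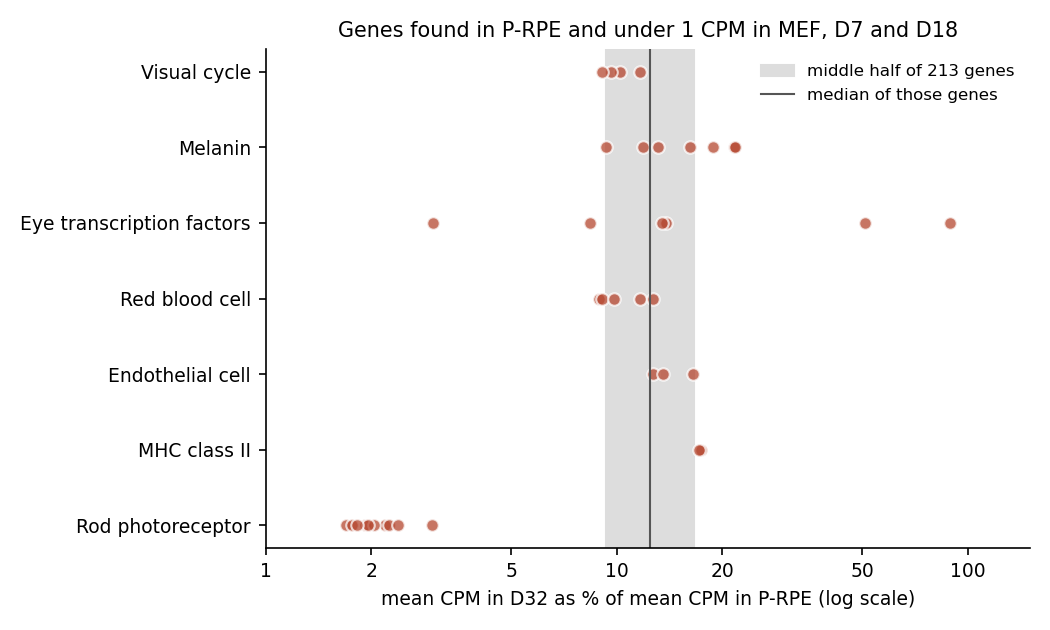
Mean CPM in D32 as a percentage of mean CPM in P-RPE (log scale) for genes chosen by at least 10 CPM in P-RPE and under 1 CPM in MEF, D7 and D18, 1 point a gene, by list. The grey band and line give the quartiles and median of all 213 such genes; red blood cell genes at 8.90% to 12.6% overlap the visual cycle and melanin points, endothelial genes at 12.7% to 16.5% overlap the melanin points, and rod genes lie at 1.70% to 2.98%.

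Among markers of blood, vessel, immune and rod cells, more were higher than lower in D32 relative to MEF, and some did not pass. Of the red blood cell genes, 7 of 11 listed passed the count filter, of which 5 were higher and 0 lower. The summed level of the list was 103 to 204 CPM in D32, 0.170 to 0.640 CPM in MEF and 975 to 1780.4 CPM in P-RPE. At D7 it was 0.250 to 0.570 CPM and at D18 0.112 to 0.454 CPM. Hba-a1, an alpha globin gene, had 31.5, 42.1 and 64.9 CPM in D32 and 0 counts in MEF, at least 1598-fold higher (edgeR adjusted p = 1.6e-05). Hbb-bs, a beta globin gene, had 56.7, 61.7 and 111 CPM in D32 and 2 counts over MEF, a ratio of 3979.9 (counting interval 1101 to 32869). Replicate 3 of D32 was the highest for both. Reads of the near-identical globin copies may have been split between them.

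Of 11 endothelial genes, 9 were higher, 1 was lower and 1 did not pass. Their summed level was 230 to 304 CPM in D32, 98.6 to 112 CPM in MEF and 1082 to 1289 CPM in P-RPE. It was below MEF at D7 (36.2 to 60.0 CPM) and D18 (9.69 to 22.1 CPM). Tie1, a receptor of vessel cells, had 20.2, 19 and 14.6 CPM in D32 and 0 counts in MEF, at least 624-fold higher. Pecam1, an endothelial junction protein, had 14.2, 11.7 and 10.1 CPM in D32 and 0.122, 0.111 and 0.624 CPM in MEF (log2 change 5.37, SE 0.43). Kdr, the main VEGF receptor, was the member that fell, to 27.4, 19.6 and 18.27 CPM in D32, against 49.3, 55.3 and 50.4 CPM in MEF. Of 12 macrophage genes, 7 were higher (4 by DESeq2) and 5 did not pass. Their summed level was 168 to 291 CPM in D32, 73.8 to 81.9 CPM in MEF and 1381 to 1496 CPM in P-RPE. It was below MEF at D7 (19.3 to 21.1 CPM) and D18 (11.2 to 41.2 CPM). Csf1r, the receptor that macrophages need to live, had 97, 79.6 and 53.7 CPM in D32 and 9.38, 11.6 and 10.8 CPM in MEF (log2 change 2.86, SE 0.61). All 5 MHC class II genes, which present antigen, were higher. Cd74, their invariant chain, had 64.2, 75.2 and 37.7 CPM in D32 and 0.0609, 0.0553 and 0.227 CPM in MEF, and 345 CPM on average in P-RPE.

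All 12 rod photoreceptor genes were higher in D32 than in MEF (7 by limma-voom). Their summed level was 52.1 to 92.9 CPM in D32, 7.74 to 8.37 CPM in MEF and 1400.4 to 3336 CPM in P-RPE. At D7 it was 7.35 to 9.36 CPM and at D18 24.4 to 29.2 CPM. Gnat1, the rod transducin, had 1.05, 7.81 and 11.7 CPM in D32 and 0.609, 0.0553 and 0.142 CPM in MEF (log2 change 4.70, SE 0.99, edgeR adjusted p = 0.00153), and did not pass by limma-voom. It was lowest in replicate 1 of D32, the library with the highest level of 10 of the 12 visual cycle genes. Other markers differed in this. Replicate 1 was the highest for 11 of 12 macrophage, 6 of 11 endothelial, 1 of 7 red blood cell and 0 of 12 rod genes. Over all 20562 genes tested it was the highest in 7411. All 12 rod genes were lower in D32 than in P-RPE, while 26.8% of all genes were. The levels of these other cell types in D32 move with the comparison of D32 with MEF, and their part in the visual cycle and melanin results was not tested. In bulk RNA, fewer cells of a type and less RNA per cell cannot be told apart.

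Contractile and matrix genes, which mark fibroblasts and myofibroblasts, did not move as 1 group. Of 15 contractile genes, 4 were higher, 4 were lower and 7 did not pass, with a median log2 change of -0.32; the 26.7% that were lower lie near the 24.6% of all genes. Without replicate 2 of D32, which had the highest level of 11 of them (beside 7801 of all 20562 genes tested), 8 were lower. Their summed level was 9797 to 14439 CPM in D32 and 16892 to 17579.5 CPM in MEF. Acta2, smooth muscle actin, had 3160.5, 4689 and 2369 CPM in D32 and 4465, 4721 and 4589 CPM in MEF, a log2 change of -0.43 (SE 0.18) that did not pass (edgeR adjusted p = 0.0523), though it passed as lower under 6 of 14 alternatives, among them DESeq2 and the fit without replicate 2 of D32. Between those stages it was low, with means of 11.5 CPM at D7 and 117 CPM at D18. Tpm1, a tropomyosin, fell to 1324, 1296 and 1323 CPM in D32, against 2706, 2727 and 2688 CPM in MEF. Actg2, an enteric smooth muscle actin, rose to 284, 537 and 215 CPM in D32, against 100.3, 102 and 99.7 CPM in MEF (log2 change 1.78, SE 0.32). Ccn2, a growth factor of the matrix, rose to 1815, 2756 and 2018 CPM in D32, against 773, 831 and 832 CPM in MEF, although 23.2% of its exon bases overlap Gm15270. In 14 of the 15 contractile genes all D32 libraries lay above all D18 libraries, against 30.8% of all genes tested.

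Of 25 matrix and fibroblast genes, 9 were higher, 3 were lower and 13 did not pass, with a median log2 change of 0.21, beside 0.26 over all genes, and the 36.0% that were higher lie near the 35.6% of all genes. In a fit of the 2 groups alone, 10 of them were lower. Together they held 4.93% ± 0.647 of counts in D32 and 4.23% ± 0.0265 in MEF (SD, n = 3 each). Thbs1, thrombospondin 1, had 8866, 10207 and 8986 CPM in D32 and 9279.6, 9442 and 9499 CPM in MEF, a log2 change of -0.01 (SE 0.18) with a 95% interval of -0.40 to 0.38. The groups overlap, and its means were 188 CPM at D7 and 335 CPM at D18. Fn1, fibronectin, had 5404, 8477 and 8213 CPM in D32 and 10630.2, 11614 and 10975 CPM in MEF (log2 change -0.59, SE 0.28, edgeR adjusted p = 0.0825). Col1a1, the chain of type I collagen, had 3677, 6264 and 5201 CPM in D32 and 7566, 7659 and 7218 CPM in MEF, with a 95% interval of -1.40 to 0.27 for its log2 change. Neither passed the test, although both passed in a fit of the 2 groups alone and all D32 libraries lay below all MEF libraries. Other members rose. Col3a1, of type III collagen, had 2801, 4707 and 4100.0 CPM in D32 and 517, 502 and 516 CPM in MEF (log2 change 2.92, SE 0.44). Dcn, the proteoglycan decorin, had 697, 684 and 677 CPM in D32 and 39.5, 37.8 and 32.9 CPM in MEF (log2 change 4.22, SE 0.39). Lum, lumican, had 98.6, 77 and 92.9 CPM in D32 and 2.13, 1.94 and 1.82 CPM in MEF (log2 change 5.51, SE 0.46).

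**Figure D4:**
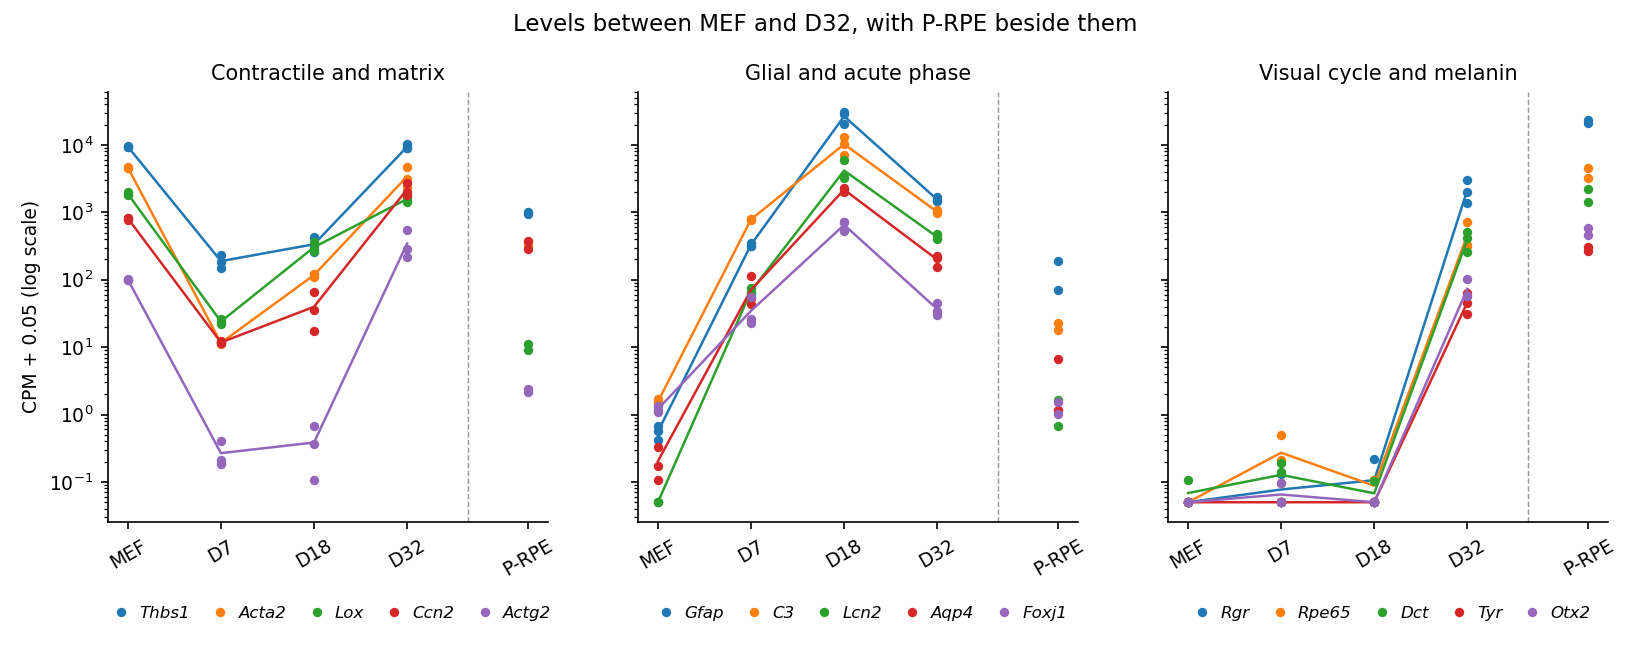
Mean CPM plus 0.05 on a log scale at MEF, D7, D18 and D32 for 5 contractile and matrix genes, 5 glial, cilia and acute phase genes and 5 visual cycle, melanin and eye genes (lines), with 1 point a library and P-RPE right of the dashed line. Thbs1 averages 188 CPM at D7 and 335 CPM at D18 between its MEF and D32 levels, Gfap reaches 26579 CPM at D18, and Tyr has 0 counts at D7 and D18.

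Most mesenchymal transcription factors fell. Of 20 listed, 14 were lower, 3 were higher and 3 did not pass, and the median log2 change was -1.07. Snai2, a driver of epithelial to mesenchymal transition, had 11.9, 11.2 and 11.6 CPM in D32 and 51.7, 51.8 and 46.2 CPM in MEF (log2 change -2.11, SE 0.25). Prrx1, of limb mesenchyme, had 225, 135 and 205 CPM in D32 and 377, 355 and 368 CPM in MEF (log2 change -0.96, SE 0.17). Twist1, a further driver of mesenchyme, had 28.8, 35.8 and 34.8 CPM in D32 and 63.2, 55.8 and 56.6 CPM in MEF (log2 change -0.82, SE 0.23, edgeR adjusted p = 0.00756). Foxc1, Tbx18 and Tcf21 were the members that rose. Foxc1, of the mesenchyme around the eye, had 109, 149.6 and 139 CPM in D32 and 74.2, 61.3 and 64.3 CPM in MEF (log2 change 0.99, SE 0.16).

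Hox genes, which mark position along the trunk and limb, were lower in D32 almost throughout. Of 39 listed genes, 37 passed the count filter, of which 31 were lower, 2 were higher (1 with RLE size factors) and 4 did not pass. Their median log2 change was -3.20, and their summed level was 53 to 56.9 CPM in D32 and 497 to 521 CPM in MEF. Hoxb9 had 3.63, 2.48 and 2.27 CPM in D32 and 67.8, 71.6 and 67.6 CPM in MEF (log2 change -4.62, SE 0.21, edgeR adjusted p = 6.67e-10). Hoxc10 had 2.3, 1.24 and 2.66 CPM in D32 and 19.5, 20.6 and 21 CPM in MEF (log2 change -3.30, SE 0.28). Hoxd13, of the distal limb, had 0 counts in D32 and 9.44, 8.63 and 9.08 CPM in MEF, at least 349.9-fold lower. The members that rose were Hoxb13, with 0.901, 1.74 and 0.887 CPM in D32 and 0.183, 0.608 and 0.113 CPM in MEF, which lost its call under 6 of 13 alternatives, and Hoxd3, of whose exon bases 62.8% overlap other genes. Neighbouring Hox genes share transcripts, so their counts are not independent. The D32 level was not that of P-RPE, where the summed Hox level was 0.616 to 0.727 CPM. There, 34 of the 37 genes were lower than in D32, while 27.1% of all genes were.

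Replication and mitosis genes fell without exception in this fit. All 27 listed were lower in D32 than in MEF, with a median log2 change of -1.67, while 24.6% of all genes were. Mki67, a marker of cycling cells, had 75.4, 52.6 and 59.2 CPM in D32 and 250.3, 220.4 and 244 CPM in MEF (log2 change -1.93, SE 0.21, edgeR adjusted p = 2.7e-06). Top2a, the topoisomerase of dividing cells, had 111, 71 and 75.7 CPM in D32 and 240.0, 225 and 233 CPM in MEF (log2 change -1.44, SE 0.18). Mcm2, a part of the replicative helicase, had 36.1, 44.9 and 28.9 CPM in D32 and 154, 155 and 159.6 CPM in MEF (log2 change -2.09, SE 0.15). In 26 of the 27 all D32 libraries lay above all D18 libraries, against 30.8% of all genes tested. Mki67 averaged 3.2 CPM at D18. In P-RPE, 26 of the 27 were lower than in D32, while 27.1% of all genes were.

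Inhibitors of the cell cycle and p53 targets were lower more often than higher. Of 12 listed, 2 were higher, 7 were lower and 3 did not pass. Cdkn1a, which encodes p21, had 276, 395 and 238 CPM in D32 and 612, 672 and 623 CPM in MEF (log2 change -1.07, SE 0.18). Cdkn2a, which encodes p16 and p19ARF, had 25.2, 47.1 and 26.7 CPM in D32 and 49.4, 49.9 and 50.4 CPM in MEF, after a mean of 210.2 CPM at D7, and its call was lost without replicate 1 or replicate 3 of D32. Cdkn1b, which encodes p27, rose to 80.6, 57 and 88 CPM in D32, against 26.3, 27.1 and 27 CPM in MEF (log2 change 1.49, SE 0.15).

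Most growth genes of the embryo fell. Of 16 listed, many of them imprinted, 12 were lower, 1 was higher and 3 did not pass, with a median log2 change of -3.08. Igf2, a fetal growth factor, had 3.63, 5.7 and 4.05 CPM in D32 and 459.7, 472 and 419.5 CPM in MEF (log2 change -6.66, SE 0.53), although 64.5% of its exon bases overlap other genes. H19, a noncoding RNA from the same imprinted locus, had 82.3, 95.5 and 101 CPM in D32 and 3354, 3191 and 3042 CPM in MEF (log2 change -5.11, SE 0.56). Hmga2, a chromatin protein of growing tissue, had 47.4, 22.3 and 30.1 CPM in D32 and 1015, 1047 and 1008 CPM in MEF (log2 change -4.94, SE 0.26). Lin28b, which blocks let-7 maturation, had 0 counts in D32 and 1.04, 0.857 and 1.3 CPM in MEF, at least 41.2-fold lower. Plagl1, an imprinted zinc finger gene, was the member that rose, to 335, 317 and 498 CPM in D32, against 198, 202 and 196 CPM in MEF.

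The 10 largest falls among genes with at least 10 CPM in MEF were Sim2, Gpr149, Pax1, Lrrn4, Klk10, Dhrs9, Lhx9, Slc38a4, Col2a1 and Wt1. Sim2, a transcription factor of the embryo, had 0.1, 0.106 and 0.0522 CPM in D32 and 83.6, 77.3 and 84.3 CPM in MEF (log2 change -9.84, SE 0.33). Pax1, of the sclerotome, had 0, 0.106 and 0 CPM in D32 and 16.7, 17 and 16.8 CPM in MEF (log2 change -8.80, SE 0.69). Col2a1, the collagen of cartilage, had 5.83, 9.29 and 11.2 CPM in D32 and 903, 939 and 916 CPM in MEF (log2 change -6.71, SE 0.92). Each of the 3 was already low at D7, with means of 1.48, 1.24 and 1.82 CPM. Of 11 skeletal muscle genes tested of 12 listed, 9 were lower, 1 was higher and 1 did not pass. Myod1, the muscle master factor, had 0 counts in D32 and 0.914, 0.719 and 1.02 CPM in MEF, at least 34.2-fold lower. Of 8 cartilage and bone genes tested of 11 listed, 3 were higher, 3 were lower and 2 did not pass. That is 37.5% each way, near the 35.6% of all genes that were higher and above the 24.6% that were lower. Alpl, an alkaline phosphatase, was among those that rose, with 95.9, 187 and 130.4 CPM in D32 and 0.426, 0.387 and 0.454 CPM in MEF (log2 change 8.34, SE 0.47).

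Glial, acute phase and motile cilia genes were mostly higher in D32 than in MEF, and the glial and cilia genes mostly lay below their D18 levels. Of 10 astroglial genes, 9 were higher and 1 was lower than in MEF, and in all 10 every D32 library lay below every D18 library, against 27.9% of all genes. Gfap, the intermediate filament of astrocytes, had 1444, 1710.4 and 1462 CPM in D32 and 0.518, 0.636 and 0.369 CPM in MEF (log2 change 11.55, SE 0.44, edgeR adjusted p = 7.43e-11), with a mean of 26579 CPM at D18. Aqp4, a water channel of glia, had 228, 155 and 211 CPM in D32 and 0.122, 0.0553 and 0.284 CPM in MEF (log2 change 10.30, SE 0.76). Gja1, a gap junction protein, was the member that fell, to 278, 137 and 244 CPM in D32, against 524, 554 and 524 CPM in MEF. All 11 acute phase and complement genes were higher, with a summed level of 2763 to 3201 CPM in D32 and 30.51 to 32.11 CPM in MEF. At D18 the sum was 16556 to 22282 CPM. In 5 of the 11 every D32 library lay below every D18 library, against 27.9% of all genes, and in 0 above. Lcn2, which binds bacterial iron carriers, had 406, 474 and 408 CPM in D32 and 0 counts in MEF, at least 14898-fold higher. Its mean at D18 was 4155 CPM. C3, the central complement protein, had 975, 1080.2 and 993 CPM in D32 and 1.64, 1.44 and 1.42 CPM in MEF (log2 change 9.40, SE 0.26). Both were also higher in D32 than in P-RPE, which averaged 1.1 CPM for Lcn2 and 20.3 CPM for C3.

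Of 12 motile cilia genes tested of 14 listed, 11 were higher and 1 did not pass. In 11 every D32 library lay below every D18 library, against 27.9% of all genes. Foxj1, the master factor of motile cilia, had 30.4, 45.2 and 34.2 CPM in D32 and 1.28, 1.05 and 1.13 CPM in MEF (log2 change 4.98, SE 0.35). Of 12 interferon genes, 11 were higher and 1 did not pass. Ifit1, an interferon-induced RNA-binding protein, had 22.7, 25.8 and 24.5 CPM in D32 and 1.1, 0.443 and 0.908 CPM in MEF (log2 change 4.90, SE 0.36). Of 10 immediate early and stress genes, 8 were higher and 2 did not pass. Fos, a part of AP-1, had 533, 517 and 557 CPM in D32 and 18.27, 17.8 and 15.7 CPM in MEF (log2 change 4.96, SE 0.27), and its partner gene Jun had 332, 330.2 and 354 CPM in D32 and 291, 291 and 285 CPM in MEF (log2 change 0.23, SE 0.14), which did not pass. Of 12 neural progenitor genes, 9 were higher, 1 was lower and 2 did not pass. Their summed level was nonetheless lower in D32, at 220 to 269 CPM, than in MEF, at 354 to 384 CPM. At D18 it was 1373 to 1636 CPM. In 10 of the 12 every D32 library lay below every D18 library, against 27.9% of all genes. Sox2, a factor of neural stem cells, had 18.7, 16 and 17.7 CPM in D32 and 4.75, 4.76 and 4.94 CPM in MEF (log2 change 1.86, SE 0.25).

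The last medium held retinoic acid and activin A. Of 12 genes of retinoic acid synthesis, breakdown and response, 6 were higher, 4 were lower and 2 did not pass. Cyp26a1, which degrades retinoic acid, had 5.71, 7.89 and 5.72 CPM in D32 and 2 counts over MEF, a ratio of 335 (counting interval 92.3 to 2769). Rarb, a receptor gene that retinoic acid is known to switch on, had 13.7, 18.9 and 14.9 CPM in D32 and 3.44, 2.77 and 3.55 CPM in MEF (log2 change 2.28, SE 0.28), although 38.4% of its exon bases overlap other genes. Crabp2, which carries retinoic acid in the cell, fell to 3.98, 6.12 and 9.08 CPM in D32, against 25.9, 28.3 and 25.3 CPM in MEF (log2 change -2.05, SE 0.50). Of 14 genes of activin, BMP and Wnt signalling tested of 15 listed, 4 were higher, 7 were lower and 3 did not pass. Inhba, the activin A subunit gene, fell to 110.0, 60.3 and 60.9 CPM in D32, against 399, 399.6 and 399 CPM in MEF. Smad7, an inhibitor of the pathway, fell to 84.9, 77.7 and 47.1 CPM in D32, against 150.1, 161 and 155 CPM in MEF.

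Epithelial junction and keratin genes moved both ways. Of 22 tested of 23 listed, 12 were higher, 5 were lower and 5 did not pass, with a median log2 change of 2.20. Krt18, a keratin of simple epithelia, had 132, 116 and 80.5 CPM in D32 and 19.1, 19.9 and 19.1 CPM in MEF (log2 change 2.50, SE 0.21). Cdh1, E-cadherin, had 5.96, 4.64 and 4.54 CPM in D32 and 0.305, 0.166 and 0.397 CPM in MEF (log2 change 4.11, SE 0.37). Krt19, a further keratin, fell to 9.89, 13.7 and 7.52 CPM in D32, against 125, 137 and 130.3 CPM in MEF (log2 change -3.65, SE 0.21). Cdh3, P-cadherin, which the retinal pigment epithelium expresses, had 58.9, 64.3 and 44 CPM in D32 and 60.5, 58 and 60.5 CPM in MEF, and the groups overlap.

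Glucose and lysosome genes included members of both directions. Of 14 glucose genes, 5 were higher, 5 were lower and 4 did not pass, and the 35.7% that were higher match the 35.6% of all genes tested, with 35.7% lower beside 24.6%. Ldha, the lactate dehydrogenase subunit that favours lactate, fell to 517, 705 and 469 CPM in D32, against 1411, 1506 and 1471 CPM in MEF (log2 change -1.38, SE 0.22). Ldhb, the other subunit, rose to 190.3, 205 and 153 CPM in D32, against 62, 64.1 and 67.1 CPM in MEF (log2 change 1.51, SE 0.14). Of 12 lysosome genes, 6 were higher, 2 were lower (4 without replicate 2 of D32) and 4 did not pass, or 50% higher and 16.7% lower. Ctsd, a cathepsin that digests outer segments, had 1071, 1302 and 886 CPM in D32 and 671, 750.4 and 722 CPM in MEF (log2 change 0.60, SE 0.16). Of 13 mitochondrially encoded genes, 6 were higher and 7 did not pass. Replicate 2 of D32 had none of the highest values among them, beside 7801 of all 20562 genes tested. mt-Co1, of complex IV, had 13486, 6800.5 and 14495 CPM in D32 and 5577, 5391 and 5323 CPM in MEF (log2 change 1.09, SE 0.24).

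Among the most abundant genes, Igfbp5, which binds insulin-like growth factors, had 6730.3, 6914 and 8523 CPM in D32 and 246, 237 and 237 CPM in MEF (log2 change 4.94, SE 0.16). Actb, cytoplasmic actin, fell to 2779, 3697 and 2439.6 CPM in D32, against 6845, 7214 and 7009.8 CPM in MEF (log2 change -1.24, SE 0.16). Eef1a1, a translation elongation factor, fell to 4700.1, 5828 and 5111 CPM in D32, against 8905, 9235 and 9109 CPM in MEF (log2 change -0.80, SE 0.12). Ppm1a, a protein phosphatase, had the narrowest interval of the 10 genes nearest to no change among those with at least 100 CPM in MEF. It had 119.8, 123 and 118 CPM in D32 and 119, 124 and 119 CPM in MEF, with a 95% interval of -0.17 to 0.17 for the log2 change.

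Lists of further cell types were called in part, beside 35.6% of all genes tested higher and 24.6% lower. Of neuronal genes, 25% were higher and 41.7% lower, and of melanocyte and Schwann cell genes 50% and 12.5%. Of choroid plexus genes, 71.4% were higher and 14.3% lower, and of lens genes 42.9% were higher. Of 12 neuronal genes, 3 were higher, 5 were lower and 4 did not pass, and Tubb3, a neuronal tubulin, fell to 14.2, 16.3 and 8.4 CPM in D32, against 34.4, 39.7 and 35.3 CPM in MEF. Of 8 melanocyte and Schwann cell genes, 4 were higher, 1 was lower and 3 did not pass, and Sox10, their shared factor, had 35.9, 41 and 21.7 CPM in D32 and 15.4, 18 and 18.24 CPM in MEF. Of 7 choroid plexus genes tested of 8 listed, 5 were higher, 1 was lower and 1 did not pass, and Igfbp2, which binds insulin-like growth factors, had 1206, 2749 and 1004 CPM in D32 and 130.2, 126 and 130.0 CPM in MEF. Of 7 lens genes tested of 11 listed, 3 were higher and 4 did not pass. Of 10 pluripotency genes, 4 passed the count filter, of which 2 were higher, 1 was lower and 1 did not pass, and Pou5f1, Zfp42 and Dppa3 had 0 counts in all D32 and MEF libraries. Of the 5 sex-linked genes 0 passed in edgeR's test, 1 had an unadjusted p under 0.05 (Kdm5d), DESeq2 called 1 higher, and without replicate 2 of D32 edgeR called 4 higher.

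**Figure D5:**
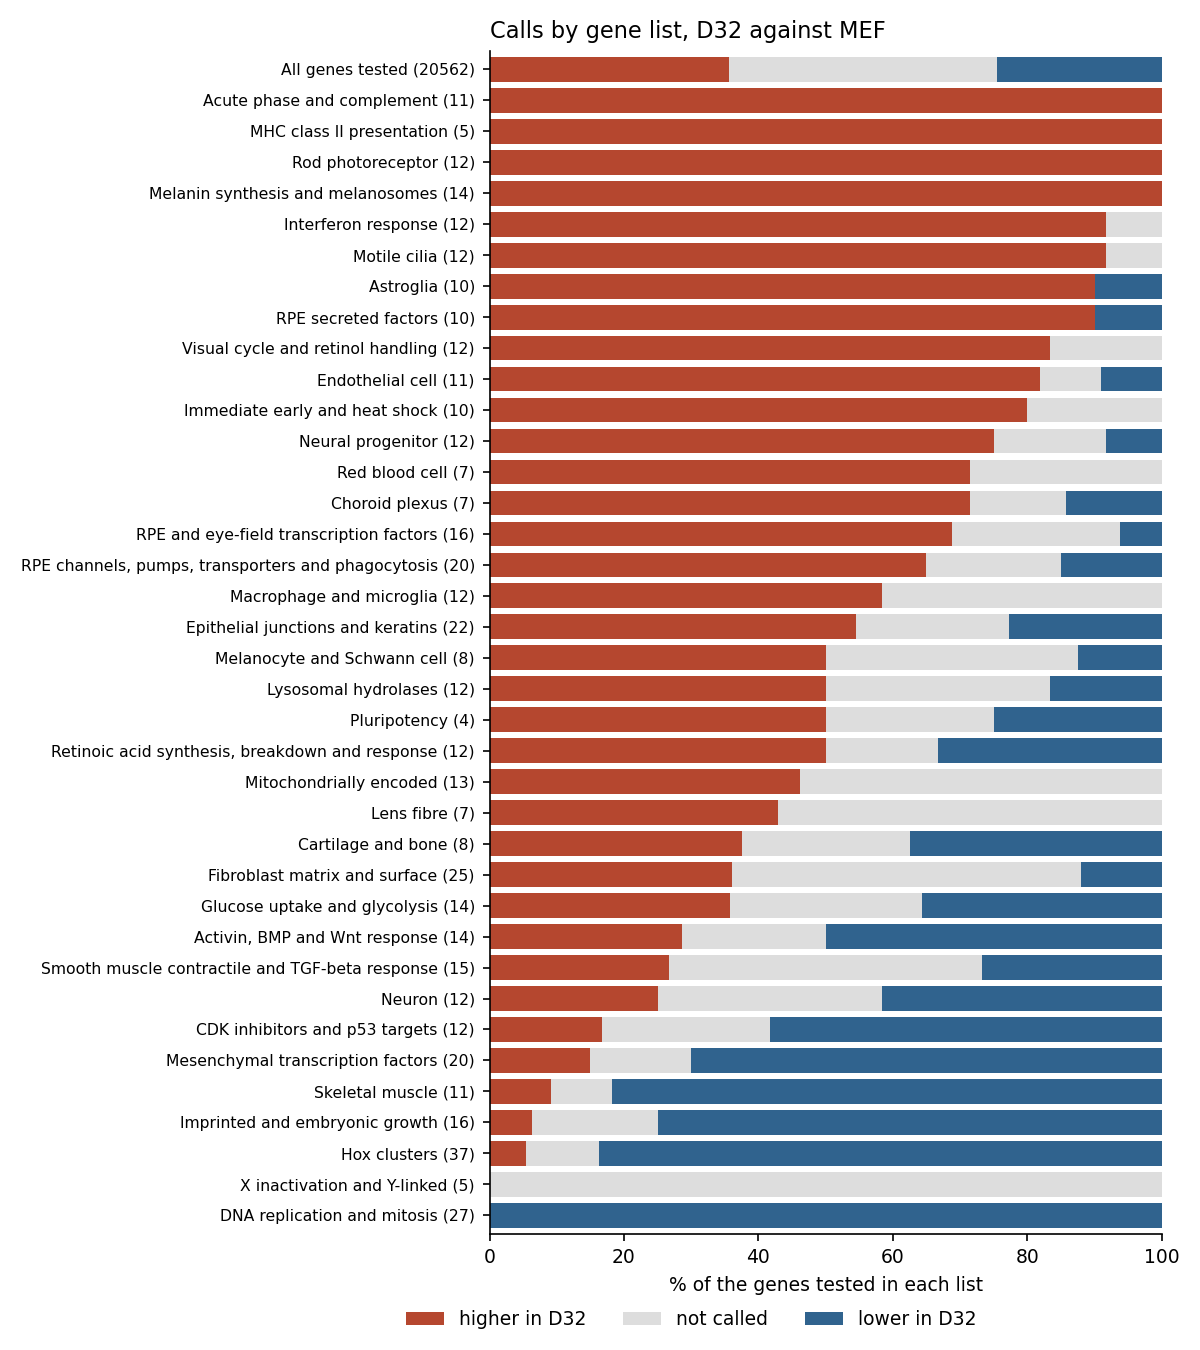
Share of the genes tested in each of the 37 lists, and in all 20562 genes (top bar), that were higher in D32 (red), not called (grey) or lower in D32 (blue) by edgeR's quasi-likelihood test at an adjusted p under 0.05, with the number tested in brackets. The bars of the melanin, rod, MHC class II and acute phase lists are red throughout, that of replication and mitosis is blue throughout, and all genes show 35.6% red and 24.6% blue.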

How the data were processed

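Bulk RNA was sequenced as 150-base read pairs, and the authors deposited whole-number counts per gene, made with STAR 2.7.11a and featureCounts per the submitters' processing notes; settings and strand use were not given in the sources used here. Samples were grouped by the labels. The 10 columns of human cells were not used. All 14 mouse libraries entered 1 edgeR 4.0.16 quasi-likelihood fit (R 4.3.3) with 5 group means, trimmed mean of M values scaling and edgeR's default filter on low counts, which left 20562 genes. P-values were adjusted by Benjamini-Hochberg over all of them, with 0.05 as the threshold. SE is the log2 change divided by the root of F. The script was tested on simulated data with the same spread per gene in every group. That test does not cover the unequal spread of D32 and MEF. A fold against a group with 0 counts used 3 counts over that group as a floor. Gene positions came from GENCODE vM21 on GRCm38, and 97.97% of symbols matched. Genes named are members of 37 lists (512 genes), the 10 largest changes each way at 10 CPM or more, the 10 most abundant per group, and those nearest 0. Members and lists were chosen with earlier results of these data known. Some genes are not reported here. Alternatives were RLE size factors, library totals, 2 filters, a replicate block, the 2 groups alone, DESeq2 1.42.0, limma 3.58.1 with voom, and each library left out.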

Additional observations from a re-analysis of the deposited data

How the results depend on the processing

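The counts of genes higher and lower in D32 than in MEF (7325 and 5051) were 6893 and 5450 with RLE size factors, 6980 and 5539 with DESeq2, 7116 and 5249 with limma-voom, 6656 and 5238 with no filter, 6257 and 5392 with the 2 groups alone, and 6512 to 7164 and 4538 to 5139 with a library left out. With a mean of at least 5 CPM, 12023 genes were tested and 4614 and 3946 called. Whether equal replicate numbers pair the libraries was not settled. Deviations from the group mean correlated at 0.129, 0.208 and 0.0126 for equal numbers and at -0.179 to 0.102 for unlike numbers. Deviations from a mean of 3 libraries are not independent, so these values cannot exclude pairing. A replicate block gave 7125 and 5044. Against P-RPE, leaving out a library gave 4361 to 5580 higher and 4314 to 5533 lower. Depth limits genes near the floor of 3 counts.

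Counts within lists moved by over 1.5 times as follows, and the cause was not tested except for the 5 CPM filter, which tests fewer genes. With RLE factors, 1 Hox gene was higher and 1 mitochondrial gene lower. With library totals, 0 choroid plexus and 1 lysosome gene were lower and 1 sex-linked gene higher. With no filter, 1 mitochondrial gene was lower. With the 2 groups alone, 10 matrix, 8 contractile, 2 endothelial and 1 mitochondrial gene were lower and 0 muscle genes higher. With DESeq2, 5 matrix, 2 endothelial and 1 mitochondrial gene were lower, and 4 macrophage and 1 sex-linked gene higher. With limma-voom, 7 contractile, 2 endothelial and 2 mitochondrial genes were lower, and 7 rod and 1 pluripotency gene higher. At 5 CPM, 6 eye factors were higher and 0 lower, 0 Hox genes higher and 16 lower, 4 epithelial genes higher and 3 lower, 3 neuronal, 0 choroid plexus and 2 muscle genes lower, and 1 lens, 0 muscle, 0 pluripotency, 1 sex-linked, 7 acute phase and 3 mitochondrial genes higher. With a library left out, 1 to 2 Hox, 0 to 1 muscle and 0 to 4 sex-linked genes were higher, and 0 to 1 choroid plexus, 0 to 1 mitochondrial, 4 to 8 contractile and 2 to 4 lysosome genes lower; the 4 sex-linked, 8 contractile and 4 lysosome genes came without D32 replicate 2.

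Uncalled genes changed sign. With library totals, the log2 change was 0.19 for Thbs1, 0.092 for Cdh3 and 0.19 for Ppm1a, and at 5 CPM it was 0.064 for Thbs1 and 0.070 for Ppm1a. For Xist it was -0.029 with limma-voom. With a library left out it ran between -0.075 and 0.029 for Thbs1, -0.21 and 0.046 for Cdh3, -0.017 and 0.015 for Ppm1a, and -0.41 and 0.33 for Xist. Of the named genes, 3 lost a call: Hoxb13 under 6 of 13 alternatives (RLE factors and 5 left-out libraries, all but MEF replicate 2; adjusted p over the alternatives 0.0153 to 0.146), Cdkn2a without D32 replicate 1 or 3 (5.08e-06 to 0.0563) and Gnat1 with limma-voom (8.25e-05 to 0.0711). Another 7 gained one. Acta2 did with RLE factors, DESeq2, limma-voom, no filter, the replicate block and without D32 replicate 2 (0.00021 to 0.217). Fn1 did with DESeq2 and the 2 groups alone (0.0120 to 0.263), and Col1a1 with the 2 groups alone (0.0158 to 0.475). Rdh11 (0.0141 to 0.503) and Kdm5d (5.39e-06 to 0.251) did with library totals, at 5 CPM and without D32 replicate 2, and Kdm5d also with DESeq2. Jun did with library totals (0.0129 to 0.389) and Ddx3y without D32 replicate 2 (1.4e-05 to 0.543).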
